A study of Homo sapiens with 6 samples.

Results

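The 10 genes described here encode the subunits of human condensin I and condensin II (SMC2, SMC4, NCAPD2, NCAPG, NCAPH, NCAPD3, NCAPG2 and NCAPH2), DNA topoisomerase II alpha (TOP2A) and the Ki-67 protein (MKI67). Members were taken by name, as every probe set whose only gene symbol in the array annotation is one of these 10. All 10 genes were found, with 35 of the 49293 probe sets that are not array controls and 10 of the 18132 genes with a probe set of a single symbol. RNA of A375 cells, a human melanoma line long kept in culture, was measured on 6 Affymetrix arrays. One group of 3 arrays came from A375 cells carrying a lentiviral short hairpin RNA against UBE2S (UEB2S in some labels), and the other group of 3 from control A375 cells. What the control cells received, how long the hairpin was expressed and whether the cells were a pool or a clone are not given in the sources used here. Sample titles call the arrays biological replicates and name no separate cultures, so p-values measure the spread between these samples. Values are log2 signals from which each probe set's own median has been taken away, so they show differences between arrays and hold no level. A gene's value is the mean of its probe sets, and every difference is knockdown minus control on the log2 scale.

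Condensins are ring-shaped ATPases that fold the chromatin of a dividing cell into compact chromosomes. SMC2 and SMC4 form the motor shared by both complexes, and each complex adds its own kleisin (NCAPH or NCAPH2) and its own pair of HEAT-repeat subunits (NCAPD2 and NCAPG, or NCAPD3 and NCAPG2). Condensin II is nuclear through interphase, whereas condensin I reaches the chromosomes after the nuclear envelope breaks down. TOP2A passes DNA strands through each other to untangle sister chromatids, and Ki-67 coats mitotic chromosomes, keeps them apart and is the standard histological marker of proliferating cells. UBE2S, the targeted gene, extends ubiquitin chains on substrates of the anaphase-promoting complex, the ligase that ends mitosis. The arrays measured transcripts, not the proteins or the complexes.

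The 10 genes did not move together. SMC4, NCAPG, NCAPD3, NCAPG2 and MKI67 fell in UBE2S knockdown cells, SMC2 and TOP2A rose, and NCAPD2, NCAPH and NCAPH2 did not pass the test (limma over all genes, adjusted p under 0.05). In RNA of whole cultures, fewer cells in a phase of the cycle and less RNA per cell cannot be told apart. Thus 5 of 10 members fell where 18.6% of all genes did, 2 of 10 rose where 21.4% of all genes did, and 40.1% of all genes were called in either direction. The median difference of the 10 was -0.13, against -0.0038 for all genes. The knockdown and control arrays did not overlap for 9 of the 10 genes, NCAPH being the exception, while 50% of all genes showed no overlap. At the level of probe sets 16 of 35 fell and 7 rose, where 17.4% of all probe sets fell and 19.5% rose. Those shares include the low signal class (classes are described under SMC4), which holds 18.5% of all probe sets but 1 of the 35. Of that class 9.04% were called. In the high class 9 of 17 member probe sets fell and 4 rose, where 55% of all were called. In the middle class 7 of 17 fell and 3 rose, where 37.3% of all were called. In each of the 10 genes all probe sets pointed the same way, although 12 of the 35 did not pass the test. They are not all separate readings: 10 of the 35 share a target sequence with another (5 shared targets), and NCAPD3 has only 1 probe set.

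**Figure D1:**
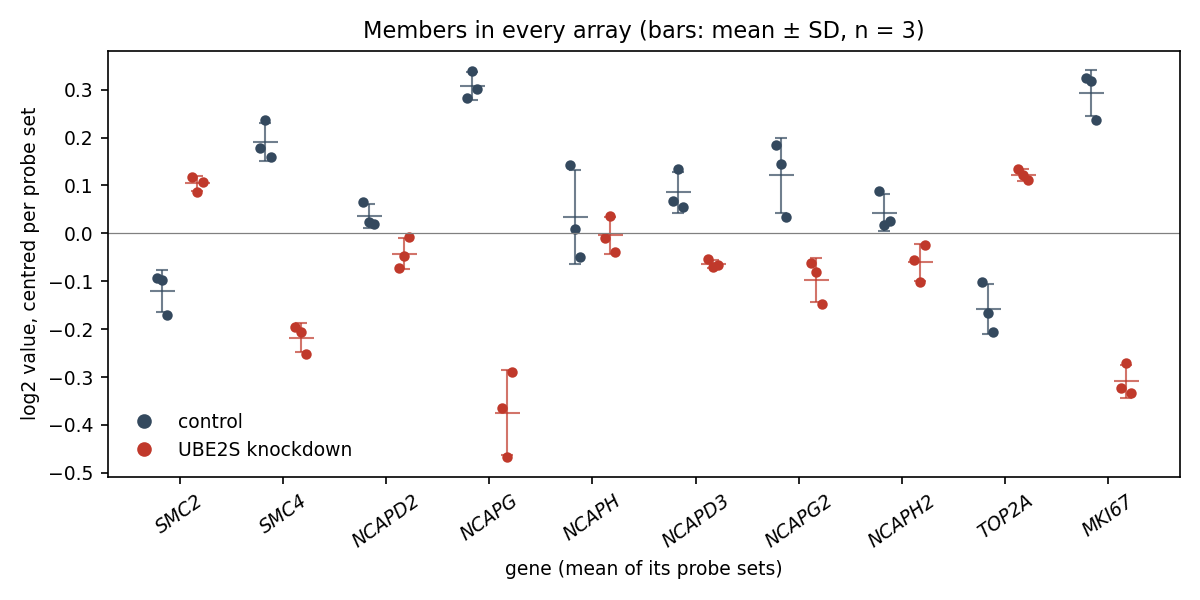
Each point is 1 array, with the centred log2 value of a gene on the vertical axis and the 10 genes on the horizontal axis, and bars give the mean and SD of 3 arrays. SMC2 and TOP2A lie higher in knockdown arrays, NCAPG and MKI67 are about 0.6 to 0.7 lower, and only NCAPH shows overlapping groups.

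The promoters of 4 members with the clearest calls are shown because cell-cycle genes of this kind are known to be controlled from short upstream elements: the CHR element bound by the DREAM and MMB-FOXM1 complexes, and CCAAT boxes bound by NF-Y. RefSeq start sites on GRCh38.p14 gave 12 upstream windows of 250 bases for 9 of the 10 genes. The sequences lie at chr4:17810729-17810978 on the plus strand (NCAPG), chr10:128126424-128126673 on the minus strand (MKI67), chr3:160399400-160399649 on the plus strand (SMC4, the first of its 2 windows) and chr17:40417897-40418146 on the minus strand (TOP2A). Each is written 5′ to 3′ and ends at the base before the start site, and capitals mark the CHR letters (TTTGAA and TTCGAA) and the CCAAT box on either strand.
NCAPG: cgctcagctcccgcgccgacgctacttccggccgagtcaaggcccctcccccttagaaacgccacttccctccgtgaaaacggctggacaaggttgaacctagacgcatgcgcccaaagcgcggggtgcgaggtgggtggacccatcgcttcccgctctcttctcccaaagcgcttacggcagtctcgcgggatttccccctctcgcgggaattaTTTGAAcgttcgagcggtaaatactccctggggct
MKI67: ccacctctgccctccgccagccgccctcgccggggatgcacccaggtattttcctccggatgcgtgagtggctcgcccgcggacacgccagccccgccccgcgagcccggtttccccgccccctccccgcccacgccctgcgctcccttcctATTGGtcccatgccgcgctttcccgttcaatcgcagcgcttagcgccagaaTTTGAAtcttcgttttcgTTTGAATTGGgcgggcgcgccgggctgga
SMC4: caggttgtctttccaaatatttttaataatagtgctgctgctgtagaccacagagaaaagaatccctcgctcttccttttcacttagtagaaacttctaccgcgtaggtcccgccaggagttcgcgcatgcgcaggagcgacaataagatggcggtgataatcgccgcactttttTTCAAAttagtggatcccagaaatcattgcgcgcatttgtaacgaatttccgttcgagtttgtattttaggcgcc
TOP2A: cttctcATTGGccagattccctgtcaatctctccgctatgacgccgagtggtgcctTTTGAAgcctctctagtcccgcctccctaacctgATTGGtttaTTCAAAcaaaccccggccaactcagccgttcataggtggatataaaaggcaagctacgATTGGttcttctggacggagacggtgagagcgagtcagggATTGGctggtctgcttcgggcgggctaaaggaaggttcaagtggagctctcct

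The CHR letters (TTTGAA or TTCGAA, either strand) were present in the windows of SMC4, NCAPD2, NCAPG, TOP2A and MKI67, 5 of 12, while 14.3% of 35116 windows of this length hold them. Members that fell, rose and did not pass the test were all among these 5. In NCAPG the match began 35 bases before the start, and in SMC4 75 bases before. MKI67 has matches at 47 and 29 bases, the latter overlapping by 1 base a CCAAT box on the opposite strand. In TOP2A they lie farther up, at 194 and 151 bases. CCAAT (either strand) was present in 5 of 12 windows, against 32% of all windows, with 4 copies each in TOP2A and NCAPD2, a number reached by 0.874% of all windows. The E2F letters TTCCCGC or TTGGCGC (either strand) were found at 101 and 45 bases in NCAPG and once in NCAPD3, against 7.81% of all windows. Neither SMC2 window holds any of the 3 motifs. A match is a run of letters and does not show that a factor is bound.

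SMC2, one arm of the motor, was higher in the knockdown arrays. Its values were 0.12, 0.087 and 0.11 in knockdown replicates 1 to 3 and -0.093, -0.096 and -0.17 in control replicates 1 to 3. The 3 knockdown arrays lay close together and all above the controls. The difference was 0.22 (SE 0.04, adjusted p = 0.00175 in limma), or 117% of the control signal. Of its 7 probe sets 5 rose, with differences from 0.083 to 0.36, and the gene's call held without any 1 of them (0.20 to 0.25).

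SMC4, the other arm, moved the opposite way. It stood at -0.20, -0.21 and -0.25 in the knockdown arrays and at 0.18, 0.24 and 0.16 in the controls. The groups were far apart compared with the spread inside each. The difference of -0.41 (SE 0.04, adjusted p = 7.44e-05 in limma) corresponds to 75.3% of the control signal. All 4 SMC4 probe sets fell, between -0.50 and -0.23, and all 4 were in the high signal class. That class is a coarse reading of the signal before centring, taken from the rounding step of the values: high is between 8 and 16, middle between 4 and 8 and low between 2 and 4 on the log2 scale. The mean of SMC2 and SMC4 differed by only -0.093.

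NCAPG, a HEAT-repeat subunit of condensin I, had the lowest mean difference of the 10 when probe sets are averaged. With the largest-variance probe set per gene MKI67 was lower (-1.01 against -0.96), and with high-class probe sets only MKI67 (-0.53) and SMC4 (-0.41) were lower than NCAPG (-0.40). NCAPG stood at -0.36, -0.47 and -0.29 in knockdown arrays and at 0.28, 0.34 and 0.30 in controls. The knockdown arrays spread more than the controls (SD 0.089 against 0.029) and still lay entirely below them. The difference was -0.68 (SE 0.05, adjusted p = 2.2e-05 in limma), or 62.3% of the control signal, and 1.48% of all genes had a lower value. Its probe sets differed in size: 11722825_at, in the middle signal class, gave -0.96 (SE 0.11), and 11722826_a_at, in the high class, gave -0.40 (SE 0.05). Either of them alone kept the fall. Its promoter, printed above, is the one of the 4 with both CHR and E2F letters.

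The other condensin I subunits showed no such fall. NCAPD2, the second HEAT-repeat subunit, stood at -0.072, -0.048 and -0.0079 in knockdown arrays and at 0.064, 0.024 and 0.019 in controls. The groups did not touch, yet the difference of -0.078 (SE 0.04, 95% interval -0.16 to 0.0058) did not pass the test (adjusted p = 0.13 in limma). One of its probe sets read -0.15, a call lost without any 1 array in turn, and the other read -0.010. NCAPH, the kleisin that closes the ring of condensin I, had overlapping groups at -0.0090, 0.036 and -0.040 in knockdown arrays and 0.14, 0.0090 and -0.048 in controls. Its difference was -0.039 (SE 0.05, 95% interval -0.16 to 0.086, adjusted p = 0.626 in limma), so a fall as large as that of NCAPG lay outside the interval. All 3 NCAPH probe sets lay between -0.066 and -0.025.

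In condensin II, NCAPG2 and NCAPD3 fell and NCAPH2 did not pass the test. NCAPG2, the paralogue of NCAPG, stood at -0.062, -0.081 and -0.15 in knockdown arrays and at 0.19, 0.15 and 0.033 in controls. The knockdown arrays were all lower, with control replicate 3 nearest to them. The difference was -0.22 (SE 0.05, adjusted p = 0.00825 in limma), or 86.0% of the control signal. That mean hides a division among its 5 probe sets. Only 2 of them fell, 11728071_a_at (-0.59) and 11756784_x_at (-0.41). The other 3 lay between -0.063 and -0.018 and did not pass the test. Without 11728071_a_at the gene stood at -0.13 (adjusted p = 0.091 in limma), and the median of its probe sets gave -0.18 (adjusted p = 0.0938), so the call rests on that probe set.

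NCAPD3, the counterpart of NCAPD2, is read by 1 probe set. It stood at -0.054, -0.071 and -0.066 in knockdown arrays and at 0.068, 0.13 and 0.054 in controls. The knockdown arrays were tight and all lower. The difference was -0.15 (SE 0.04, adjusted p = 0.0125 in limma over all genes, and 0.0318 over all probe sets). Over all probe sets this call was lost without 5 of the 6 arrays in turn (adjusted p up to 0.1), control replicate 3 being the exception, and over all genes it was kept. NCAPH2, the kleisin of condensin II, stood at -0.056, -0.10 and -0.025 against 0.088, 0.017 and 0.025. Its groups did not overlap, and the difference of -0.10 (SE 0.04, 95% interval -0.195 to -0.013) had an unadjusted p of 0.03 and did not pass the test (adjusted p = 0.07 in limma). One probe set of NCAPH2 gave -0.18 and the other -0.032.

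TOP2A rose, with all knockdown arrays above all controls. It stood at 0.13, 0.12 and 0.11 in knockdown arrays and at -0.10, -0.17 and -0.21 in controls. The knockdown arrays were nearly identical (SD 0.012), and the controls spread more (SD 0.053). The difference was 0.28 (SE 0.04, adjusted p = 6.62e-04 in limma), or 121% of the control signal. All 3 probe sets were in the high signal class, with differences of 0.37, 0.34 and 0.13, of which the last did not pass the test. The rise was called without any 1 of them.

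MKI67 fell. It stood at -0.32, -0.27 and -0.33 in knockdown arrays and at 0.32, 0.32 and 0.24 in controls. The groups lay far apart compared with the SD inside each (0.034 and 0.048). The difference was -0.60 (SE 0.04, adjusted p = 1.38e-05 in limma), or 65.9% of the control signal. Of its 6 probe sets 5 fell and all 6 showed no overlap between groups, but their sizes ranged from -1.01 to -0.23. The largest, -1.01 (SE 0.05), came from 11721145_s_at, a kind the array marks as shared between genes, and 11721144_a_at, designed on the same transcript, gave -0.93 (SE 0.08). The only MKI67 probe set in the high class gave -0.53 (SE 0.05). Without any 1 of the 6 the gene stood between -0.67 and -0.52.

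**Figure D2:**
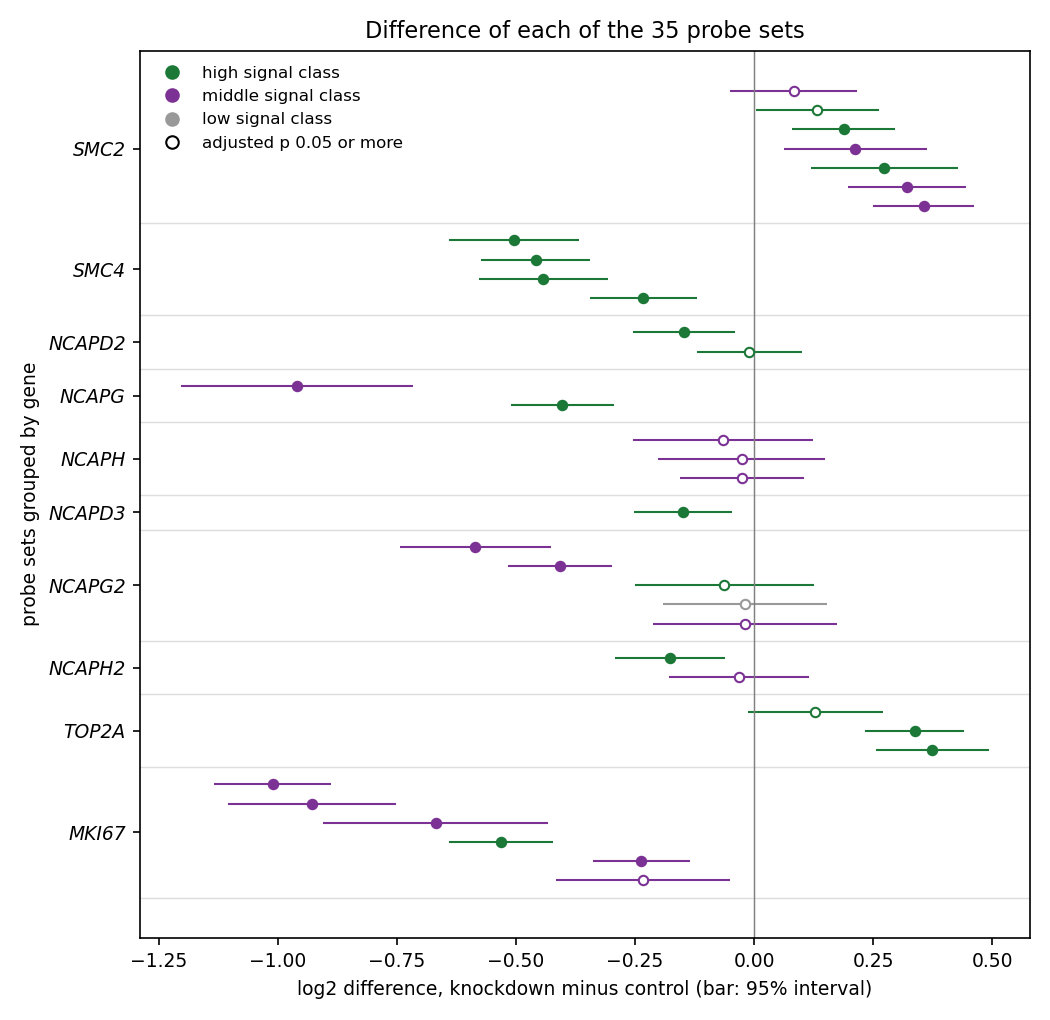
Each point is 1 of the 35 probe sets, with its log2 difference and 95% interval on the horizontal axis, grouped by gene on the vertical axis. Colour gives the signal class and an open point an adjusted p of 0.05 or more: SMC4 and SMC2 lie on opposite sides of 0, and NCAPG2 and MKI67 spread widely within the gene.

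Paired members were then compared inside each array, a measure on which the scaling of an array has no effect. SMC2 minus SMC4 was 0.31, 0.29 and 0.36 in knockdown arrays and -0.27, -0.33 and -0.33 in controls. The difference changed by 0.63 without overlap. The sign inside a group follows from the centring and does not say which gene of a pair is higher, so only the change between groups can be read. TOP2A minus MKI67 was 0.46, 0.39 and 0.44 in knockdown arrays and -0.42, -0.48 and -0.44 in controls, a change of 0.88 without overlap. NCAPG minus NCAPG2 was -0.30, -0.39 and -0.14 against 0.096, 0.19 and 0.27, a change of -0.46 without overlap. NCAPD2 minus NCAPD3 changed by 0.071 and NCAPH minus NCAPH2 by 0.065, and both overlapped between groups. An exact two-sided permutation test of 3 against 3 arrays cannot go below 0.1, so none of the 5 pairs could pass. It gave 0.1 for the 3 pairs without overlap (adjusted over 5 pairs, 0.167), 0.2 for NCAPD2 minus NCAPD3 and 0.5 for NCAPH minus NCAPH2 (adjusted, 0.25 and 0.5).

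**Figure D3:**
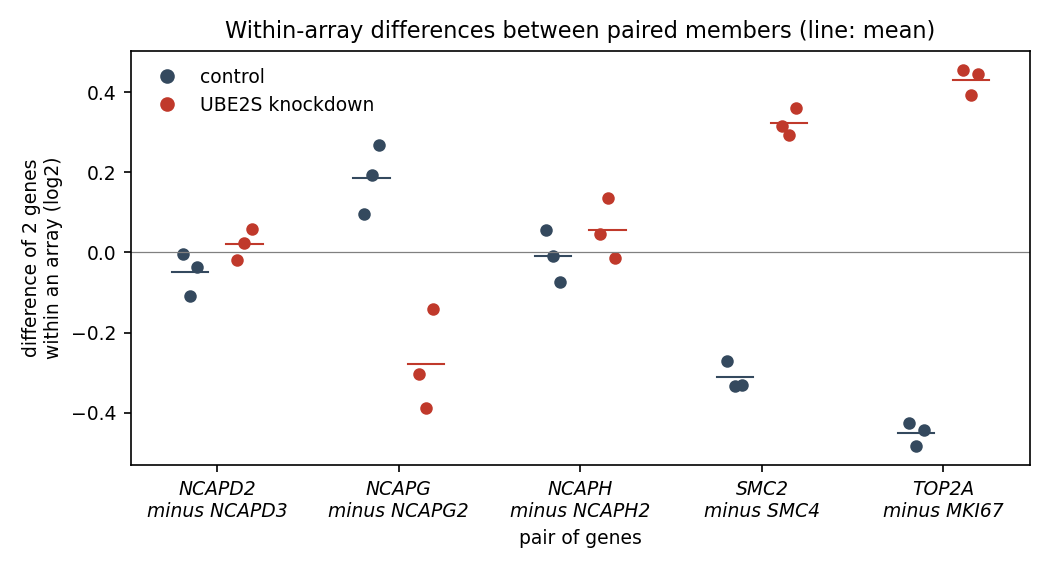
Each point is 1 array, with the log2 difference between a pair of genes in that array on the vertical axis, and lines give group means. The groups lie 0.63 apart for SMC2 minus SMC4 and 0.88 apart for TOP2A minus MKI67, whereas the NCAPD and NCAPH pairs overlap. The position of 0 comes from the centring.

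Averaged over their own 3 subunits, condensin I stood at -0.15, -0.16 and -0.11 in knockdown arrays and at 0.16, 0.12 and 0.091 in controls, a difference of -0.27. Condensin II stood at -0.057, -0.085 and -0.080 against 0.11, 0.099 and 0.038, a difference of -0.16. Both averages were lower in every knockdown array, and NCAPG carries most of the former. No test was made on these averages.

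Which of the smaller changes passed the test depends on how the arrays are scaled, although no member's gene mean changed sign under either spike-in centring. Hybridization spike-in transcripts, added to the hybridization mix of every array, were 0.17 higher in knockdown arrays, and poly-A spike-ins, added to the RNA before labelling, 0.098 higher, both without overlap. Centring on the hybridization spike-ins shifts the median of all genes to -0.17 and turns the split of called genes from 46.5% falls to 83.9% falls (71.7% with the poly-A spike-ins). On that scale SMC2 (0.056, adjusted p = 0.317) and TOP2A (0.11, adjusted p = 0.0903) did not pass the limma test. NCAPD2 (-0.25), NCAPH (-0.21) and NCAPH2 (-0.27) did pass it, giving 8 falls and 0 rises among the 10. Of all 18132 genes, 9196 fell and 1764 rose on that scale. Of the SMC2 probe sets only 11736528_a_at (0.19) was still called on that scale, and 11736527_a_at (-0.084) and 11740118_a_at (-0.035) had changed sign. In all, 3 member probe sets still rose there, and those besides 11736528_a_at were of TOP2A. With the poly-A spike-ins SMC2 (0.13) and TOP2A (0.18) still rose and 7 members fell, where 6297 of 18132 genes fell and 2486 rose. Statements on rises and falls here are relative to the array-wide scaling of the deposited values.

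**Figure D4:**
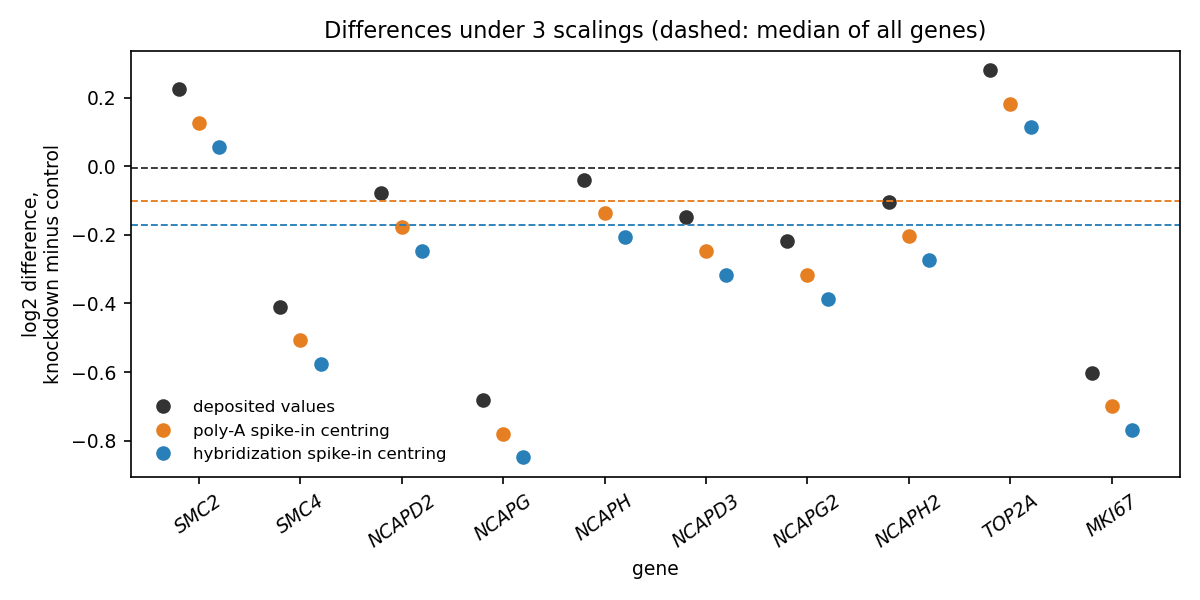
Points give the log2 difference of each gene under the deposited scaling, with poly-A and with hybridization spike-in centring, and dashed lines the median of all 18132 genes under each. SMC2 and TOP2A lie above the median line, and NCAPG, MKI67 and SMC4 lie well below it. Each centring moves all genes by the same amount, so a gene's place relative to the line cannot differ between scalings.

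Related genes were counted in 5 lists, to be read against the 18.6% of all genes that fell, the 21.4% that rose and the median of -0.0038. Counts under other settings have other backgrounds. Of all genes, 9196 of 18132 fell with hybridization and 6297 with poly-A spike-in centring. Without _s_at and _x_at probe sets 2765 of 16701 fell, and with high-class probe sets only 2280 of 7061. Of 17 transcription factors of the G2/M programme and the E2F family, 8 fell and 1 rose, with a median of -0.09. Without _s_at and _x_at probe sets 5 of 16 fell and 2 rose, and with hybridization spike-in centring 12 of 17 fell. The MMB subunit MYBL2 fell (-0.49, SE 0.04), as did the repressor E2F4 (-0.36) and the activator E2F2 (-0.26), and LIN37, a DREAM subunit, rose by 0.35 (SE 0.05). FOXM1 and the NF-Y subunits NFYA and NFYC also fell, and E2F1 (0.070) did not pass the test. PLK1, the mitotic kinase, and 8 more of 16 measured condensin regulators fell, and 1 rose, with a median of -0.12. Without _s_at and _x_at probe sets 6 of 15 fell, and with hybridization spike-in centring 13 of 16. Without knockdown replicate 1, 7 of 16 fell and 2 rose. PLK1 stood at -0.55 (SE 0.06), and the cyclins CCNB2 and CCNB1, partners of the kinase that phosphorylates condensin, at -0.47 each. CDK1 itself fell by only 0.11 on the log2 scale. PPP2R5A, a regulatory subunit of phosphatase PP2A, rose by 0.92 (SE 0.04), with 0.47, 0.42 and 0.50 in knockdown arrays and -0.51, -0.42 and -0.44 in controls. KIF4A (-0.060), a kinesin that works beside condensin on chromosome axes, did not pass the test.

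Among other SMC proteins, SMC6 (-0.62, SE 0.05) and SMC5 (-0.31), which form the DNA repair complex, and the cohesin subunit SMC1A (-0.39) fell, 3 of 7 measured. The cohesin partner SMC3 (-0.066) and RAD50 (0.081) did not pass the test, and the median was -0.11. With hybridization spike-in centring 6 of 7 fell and with poly-A centring 5 of 7, SMC3 among them in both (-0.23 and -0.16). Of 15 other topoisomerases and TOP2A partners 9 fell and 1 rose, with a median of -0.15. With high-class probe sets only 3 of 7 fell, and with hybridization spike-in centring 12 of 15. Without knockdown replicate 3 or without control replicate 2, 2 rose. PLK1, which is in this list too, fell most, followed by the anaphase-bridge helicase ERCC6L (-0.39, SE 0.03) and the SUMO protease SENP6 (-0.30). TOP1, which relaxes DNA by single-strand cuts, rose by 0.36 (SE 0.04), and TOP2B, the paralogue of TOP2A, did not pass the test, at 0.017 (SE 0.04). Both TOP1 probe sets are of the _x_at kind, which the array marks as open to cross-hybridization.

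Proteins of the chromosome periphery and partners of Ki-67 were mostly lower: 10 of 14 fell and 0 rose, and their median was -0.31. Without _s_at and _x_at probe sets 6 of 9 fell, and with hybridization spike-in centring 13 of 14. PES1 (-0.68, SE 0.04), FBL (-0.64) and CBX3 (-0.54) fell most, the first and the second of them nucleolar proteins that make ribosomes in interphase and the third a heterochromatin protein. The Ki-67 ligand NIFK (-0.32) and the phosphatase anchor CDCA2 (-0.32) with its catalytic partner PPP1CC (-0.53) fell as well. KIF15 (0.0084), CBX5 (0.0017), CBX1 (-0.047) and PPP1CA (0.023) did not pass the test. PPP2R5A, TOP1 and LIN37 still rose with hybridization spike-in centring (0.75, 0.19 and 0.18).

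**Figure D5:**
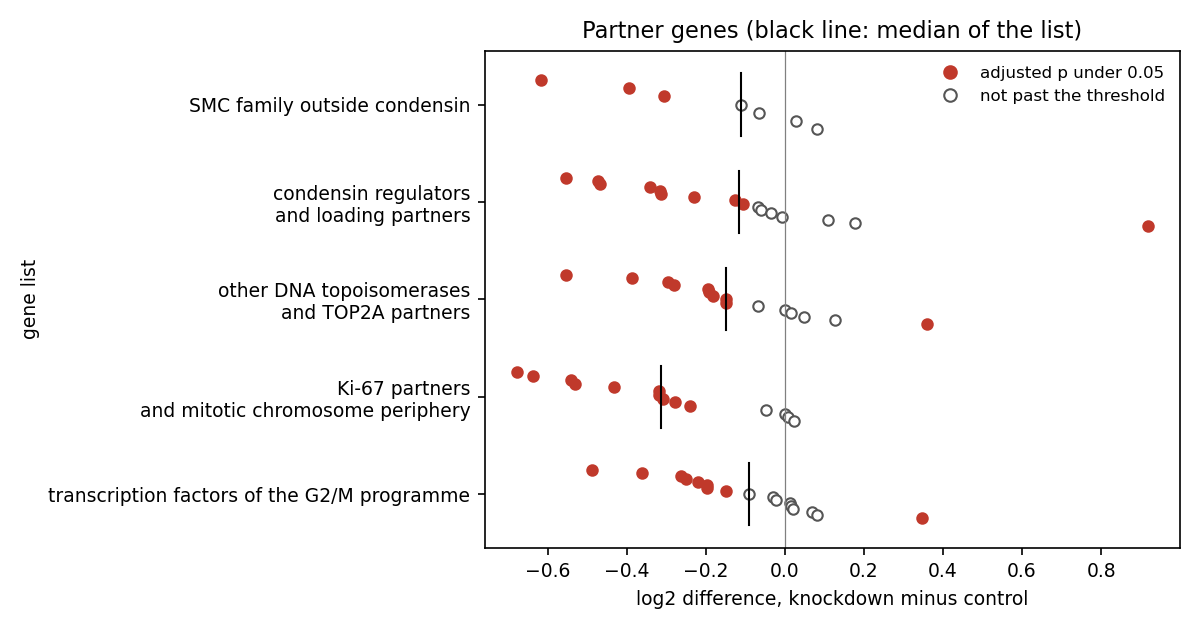
Each point is 1 gene with its log2 difference on the horizontal axis, in 5 lists on the vertical axis, filled where the adjusted p was under 0.05, with a line at the list's median. The medians of all 5 lists lie below 0, and PPP2R5A, TOP1 and LIN37 are the 3 filled points above 0.

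Genes whose 6 values lay nearest to a member (Euclidean distance over the 6 arrays) were PUM3, ITGA2 and KPNB1 for MKI67 (0.055 to 0.057), CDCA7, FER and CLNS1A for NCAPG (0.069 to 0.087) and CBX6, BTBD3 and CIBAR1 for TOP2A (0.051 to 0.052). Members were left out of this search, and none of the 9 is on one of the lists.

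UBE2S itself, read by 1 probe set, was at -1.13, -1.05 and -1.01 in knockdown arrays and 1.06, 1.01 and 1.01 in controls, 23.5% of the control signal. In the control probe sets for RNA quality, ACTB gave a 3′ minus 5′ value 0.19 above that of the controls in knockdown arrays, with separate groups, and GAPDH one 0.023 above, with overlapping groups. The part of either, or of the spike-in shift, in the differences of the members was not tested. Since values hold no level, the presence of lineage markers could not be checked. Of the melanocyte markers MITF fell (-0.72) and the other 4 measured did not pass the test. Those were MLANA (-0.090), TYR (0.027), SOX10 (0.13) and PMEL (0.17). The sum of all 5, MITF included, lay between -0.37 and -0.15 in knockdown arrays and between 0.026 and 0.55 in controls. Among markers of other cell types, CD68 rose (0.40), VWF rose (0.16) and KRT8 fell (-0.69), and the other 7 measured leukocyte, endothelial and epithelial markers did not pass the test. Summed over the 4 measured leukocyte markers, knockdown arrays lay between 0.12 and 0.37 and controls between -0.41 and -0.18. CD68 is among these 4, and PTPRC (0.042), CD3E (0.043) and LYZ (0.055) had overlapping groups. The sums of 3 endothelial markers lay between -0.090 and 0.097 against -0.13 and -0.040, and those of 3 epithelial markers between -0.52 and -0.23 against 0.29 and 0.40. KRT8 is among the epithelial markers, and CDH1 (-0.070) and EPCAM (0.041) had overlapping groups. The part of all these markers in the results was not tested.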

How the data were processed

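The table deposited by the authors holds log2 values. RMA, affy and limma are named, without versions, in the submitters' processing notes. RMA corrects background, quantile-normalizes and summarizes probes, so a shift of all transcripts one way would not be seen. In the deposited table every probe set had a median of 0 over the 6 arrays (within 4.85e-07), a centring that no source used here describes and that removes levels. The base of the logarithm follows from RMA.

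Of 49395 probe sets, 102 array controls were left out. Gene symbols came from the platform annotation (44988 probe sets with 1 symbol, 1832 with several, 2473 with none). None of the 1832 names a member, and all 10 member symbols matched RefSeq by gene number. Arrays of 1 group differed with an SD of 0.125 to 0.144 over probe sets, and no array was a copy of another. The number of arrays limits the precision.

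Gene means and single probe sets were compared by limma (3.58.1, R 4.3.3; lmFit, then eBayes), two-sided, 3 against 3 arrays, without block or filter, with Benjamini-Hochberg adjustment over all 18132 genes or 49293 probe sets. The code was tested on simulated data. Standard errors are moderated. Named genes are the members, UBE2S, up to 3 changed genes per direction in each list, the 3 nearest genes of MKI67, NCAPG and TOP2A, and further list genes named after their values were seen. Some list and marker genes, among them MCPH1, M18BP1 and DCT, were not analysed here. Members and lists were chosen with earlier results of these data known, so no test over a list is given. Signal classes allow 0.12 of a rounding step. Of the background control probe sets, 4 fell in the high and 6 in the middle class, so a class does not show detection.

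Alternatives were the largest-variance probe set or the median per gene, fewer probe sets, other scalings, array weights, a robust variance model, the replicate block and leaving out each array or probe set. High-class probe sets alone were added after seeing the data.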

Additional observations from a re-analysis of the deposited data

How the results depend on the processing

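All 10 members kept their direction and their call without each of the 6 arrays in turn, except that NCAPH, not called in any of them, lay between -0.080 and 0.015. As gene means in the fit over all genes, SMC4, NCAPG, NCAPD3 and MKI67 kept their calls under every alternative run. NCAPD3 has 1 probe set, so alternatives that choose among probe sets cannot alter its difference. Its adjusted p reached 0.0459 (limma, without knockdown replicate 2), and its call over all probe sets was less stable, as given above. With hybridization spike-in centring 8 members fell and 0 rose, 3 member probe sets rose in place of 7, and 10960 genes were called in place of 7266. Of those 10960 genes, 9196 fell and 1764 rose. With high-class probe sets only, 4564 genes and 8988 probe sets were called, 9 member probe sets fell in place of 16, and NCAPG2 stood at -0.063 (adjusted p = 0.504). Those counts come from fewer probe sets, as does the 11577 called without the _s_at and _x_at kinds. In the high class NCAPG2 was read by 11761328_x_at alone, and NCAPH, with 0 probe sets in it, was not measured. With the largest-variance probe set per gene, SMC2 minus SMC4 changed by 0.861, TOP2A minus MKI67 by 1.39 and NCAPD2 minus NCAPD3 by 0.00227. NCAPH2 was called with that probe set, with array weights, with either spike-in centring, with high-class probe sets only and without 11729540_at (-0.27 to -0.13), and NCAPD2 with either spike-in centring, with high-class probe sets only and without 11744272_a_at (-0.25 to -0.078).

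Replicate numbers did not pair the samples: same-numbered deviations correlated at -0.030, -0.017 and -0.11. With the replicate block 5 members fell and 2 rose, with 6684 genes called and 13 member probe sets that fell, and no member gene changed its call. Depth does not apply to arrays, and signal over background is unknown.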
